A study of Mus musculus with 2 samples.

Results

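The 8 genes described here code for subunits of channels that join cells or open cells to their surroundings: the connexins *Gja1*, *Gja4*, *Gja5*, *Gjb1*, *Gjb2*, *Gjb6* and *Gjd2*, and the pannexin *Panx1*. The list was given by name, and its genes were found by symbol among the 19465 genes of the count matrices, and all 8 were present with UMIs in both sections. Their levels were followed over tumor, tumor edge and neural tissue in 2 cerebellar sections with breast cancer brain metastases, each from a separate biological replicate, to set the tumor against the connexins of glia and vessels.

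Connexins assemble in the plasma membrane into half-channels, and half-channels of adjoining cells dock to form gap junctions that pass ions and small molecules. In the brain, astrocytes couple mainly through CX43 and CX30, the products of *Gja1* and *Gjb6*, oligodendrocytes carry CX32 (*Gjb1*) beside other connexins, and neurons form electrical synapses with CX36 (*Gjd2*). CX37 (*Gja4*) and CX40 (*Gja5*) are known from vessel walls, CX26 (*Gjb2*) from epithelia, leptomeninges and some glia, and CX43 also from many epithelial and stromal cells. Pannexin 1 forms channels in single membranes that can release ATP.

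Both sections came from C57BL/6J mice that received HP organoids in the cerebellum and no treatment. HP organoids were grown from mammary tumors of mice with a human HER2 V777L transgene, driven by an actin promoter behind a Lox–STOP–Lox element, and the PIK3CA H1047R mutation, in which Cre adenovirus in the mammary gland had started the tumors. The organoid cells carried luciferase and had been selected as stable clones, and recipients were 5 months old at injection by the methods. Sample labels call the organoids HP-F1 in section 1 and HP-B6 in section 2. Formalin-fixed sections, 5 µm thick, were read with the Visium CytAssist assay, in which probe pairs against mouse transcripts are captured on barcoded spots and counted as unique molecular identifiers (UMIs). Each spot covers a patch of tissue and can mix cells of several types.

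The sections held 3406 and 4017 spots under tissue with 63986887 and 71878333 UMIs, of which 3315 and 3999 spots had at least 500 UMIs and 10 genes. Zones were drawn from a score of tumor against neural genes that holds none of the 8 genes. Tumor interiors had 730 and 811 spots, edges within 2 array steps on either side of the border had 234 and 245, and neural tissue had 2351 and 2774. The median tumor spot held 55104.5 and 41002 UMIs and the median neural spot 7527 and 9753.5. The tumors differed by their markers. Summed epithelial markers (8 genes with *Epcam* and keratins) stood at 46.3 CPM (UMIs per 1000000 UMIs of a zone) in the tumor of section 1 and 10312 in that of section 2, and fibroblast markers (7 genes with *Col1a1*) at 56063 and 695 CPM, and the epithelial sum in the tumor of section 1 was near that of its neural tissue, 28.5 CPM. Spots of section 2 that scored as tumor but lay outside the main mass belong to no zone. They included 118 spots with epithelial markers, described with *Gja1*, and 46 spots with choroid plexus markers.

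Of the 8 genes, 3 fell in tumor against neural tissue and none rose (*Gjb1*, *Gjb6* and *Gjd2*), where 35.8% of all 19056 genes tested were called, 17.0% lower and 18.8% higher. The same 3 genes fell at the edge against neural tissue, where 21.3% of all genes were called, 12% lower and 9.31% higher. Between tumor and edge only *Gjb1* was called, lower in tumor, where 11.6% of all genes were called, 6.72% lower and 4.91% higher. Calls rest on edgeR's quasi-likelihood test with a Benjamini-Hochberg (BH) adjusted p below 0.05, on UMIs summed by section and zone, with the section as a block. The median log2 fold change over the 8 genes was -0.29, -0.64 and -0.15 in these comparisons, and over all genes tested it was -0.09, -0.09 and 0.10. In tumor against neural tissue 3 of the 8 genes (*Gja1*, *Gja5* and *Panx1*) went in opposite directions in the sections in CPM, as did 21.9% of all genes.

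**Figure D1:**
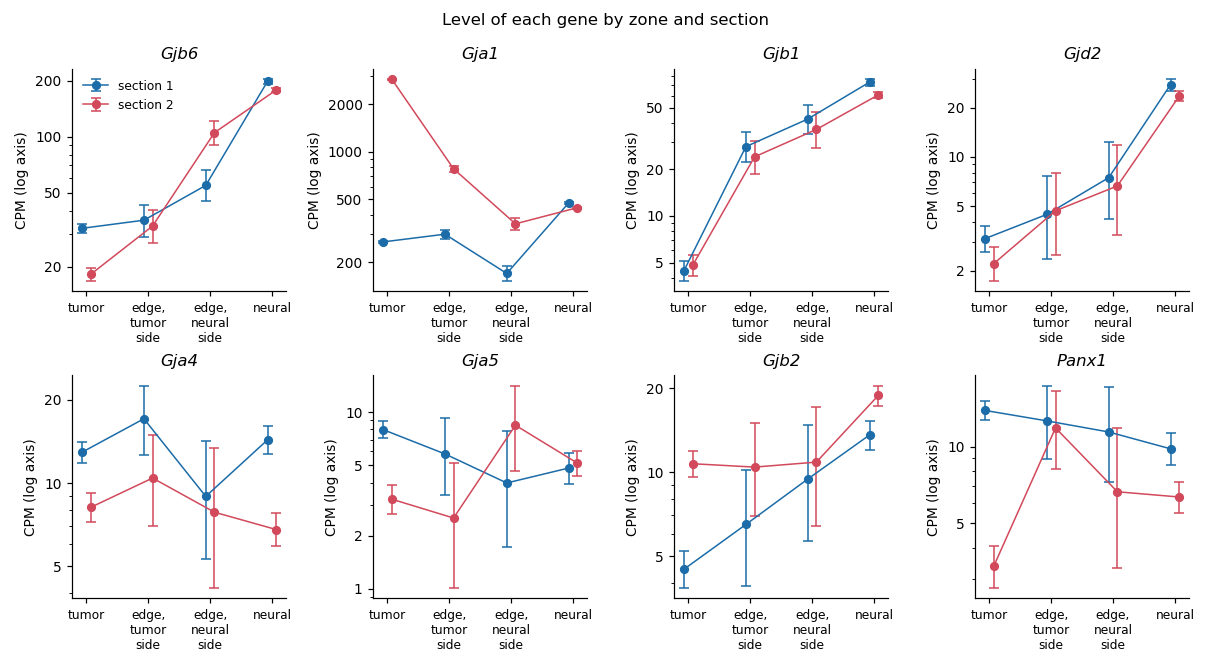
CPM (log axis) of each gene in the 4 zones of section 1 (blue) and section 2 (red). Points are summed UMIs of a zone over its total, and bars are exact Poisson 95% intervals, which cover counting error alone. *Gjb6*, *Gjb1* and *Gjd2* climb from tumor to neural tissue in both sections, while *Gja1* is highest in the tumor of section 2 and, in section 1, in neural tissue.

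*Gjb6* (CX30; GRCm38.p6 chr14:57123301-57133611), which codes for the connexin most restricted to astrocytes, was low in both tumors and high in neural tissue. It stood at 32.2 CPM in the tumor of section 1 and 18.2 in that of section 2, at 35.6 and 33.1 on the tumor side of the edge, at 54.7 and 105 on the neural side and at 199 and 178 in neural tissue. Neither section's tumor came near either neural level in CPM. The log2 fold change from neural tissue to tumor was -2.28 and -2.91 in sections 1 and 2, and -2.57 over both (standard error, SE, 0.39, edgeR quasi-likelihood BH-adjusted p = 0.0039). Because neural genes helped to draw the zones, the fall of a gene of neural tissue is not independent of how they were set. At the edge the log2 fold change against neural tissue was -1.78 (SE 0.32, edgeR quasi-likelihood BH-adjusted p = 0.012), and this call was lost when regions came from k-means clusters (-1.44, adjusted p = 0.099 by the same test). From edge to tumor the difference of -0.78 was not called (edgeR quasi-likelihood BH-adjusted p = 0.18). Summed astrocyte markers (8 genes with *Aqp4*, *Slc1a3* and *Gfap*) moved the same way, from 6966 and 8863 CPM in neural tissue to 1439 and 1388 in tumor. Of the 8, 6 were called lower, as were 17.0% of all genes, and *Gfap* (-1.18) was not called. At the edge against neural tissue 4 of the 8 were called lower, as were 12% of all genes. There *Gfap* (0.06) and *Slc1a3* (-0.23) were not called. In UMIs per spot, *Gjb6* was 1.72 in tumor and 1.70 in neural tissue of section 1, and 0.739 and 1.97 in section 2. A lower CPM can come from fewer cells of a type, from less RNA per cell or from more UMIs of other genes. Which of these applied was not tested, and in spots the number of cells and the RNA per cell cannot be told apart.

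By distance from the border, *Gjb6* regained its level over different widths in the sections. In section 1 it was 51.1 CPM at the first step outside the border, 93.0 at steps 3 to 4, 165 at steps 5 to 8 and 224 at steps 9 to 16. In section 2 it was 58.6 CPM at the first step, 159 at the second and 192 at steps 3 to 4, after which it lay between 172 and 181. The return was thus nearly complete by the second step in section 2. In section 1 it was not by steps 3 to 4 and was nearer at steps 5 to 8, which were not divided further. Inside the tumors the gene was patchy: section 1 had 10.1 CPM at 13 or more steps from the border but 47.4 at 9 to 12 steps, where astrocyte markers also rose, from 449 to 2191 CPM.

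Within the tumors *Gjb6* was higher in spots high in astrocyte markers. Whether this was particular to astrocytes among the cells of neural tissue was not tested. In the 10% of tumor spots with the highest astrocyte marker sum it was 133 CPM (95% interval 122 to 146) in section 1 and 101 CPM (89.3 to 113) in section 2, against 21.4 and 10.4 CPM in the other tumor spots, a ratio of 6.22 and 9.66. In neural tissue the same division gave ratios of 1.09 and 1.14. In epithelium-high tumor spots of section 2 *Gjb6* was 3.35 CPM against 20.2 elsewhere in that tumor.

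**Figure D2:**
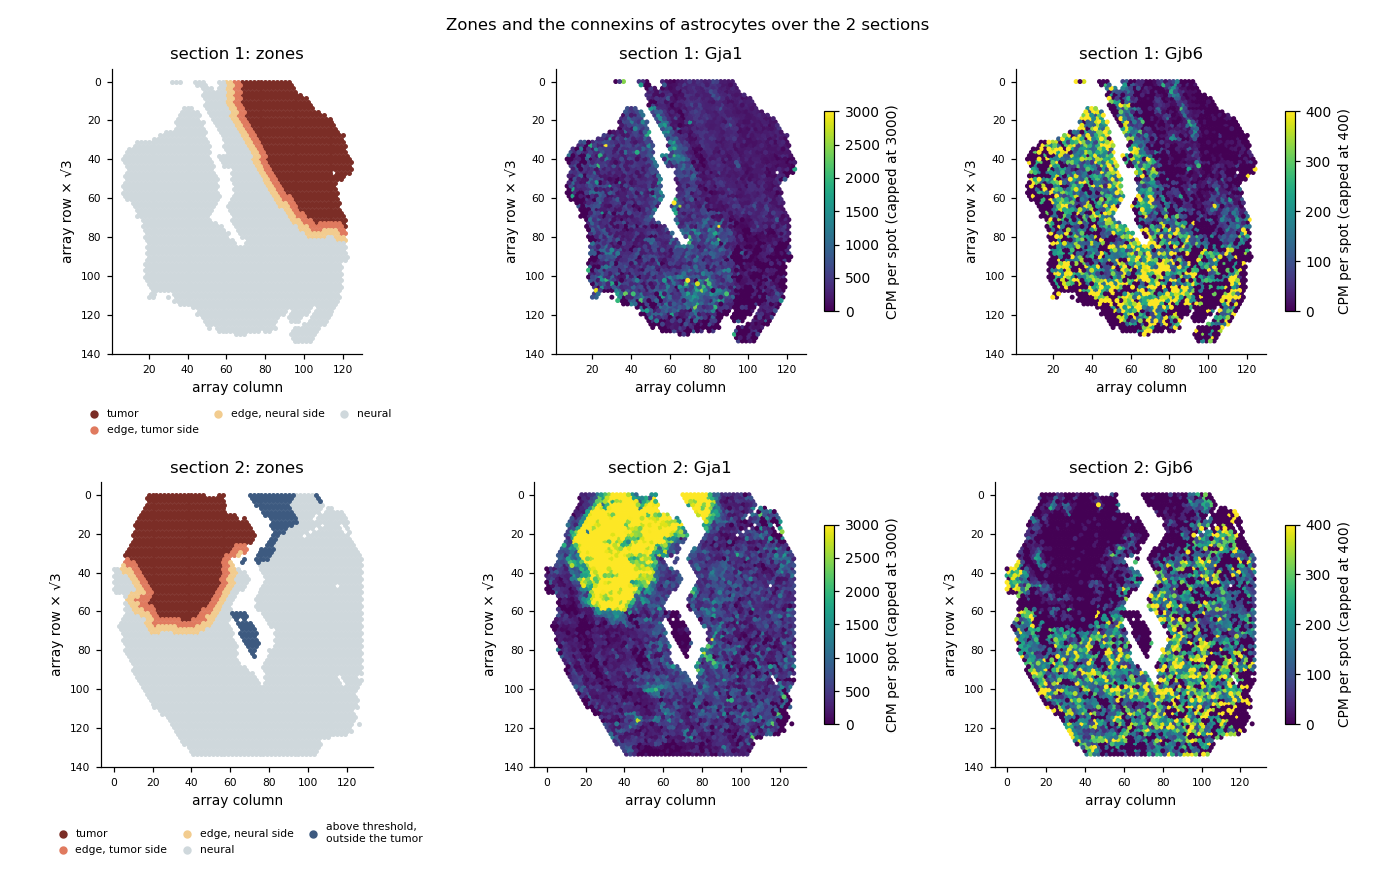
Spots of section 1 (top) and section 2 (bottom) at their array positions (column, and row times √3), colored by zone (left) and by CPM of *Gja1* (middle, capped at 3000) and *Gjb6* (right, capped at 400). Both genes are seen over neural tissue; within the tumor *Gja1* is bright only in section 2, where *Gjb6* is dark.

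*Gja1* (CX43; chr10:56377300-56390419), the other main astrocyte connexin and a connexin of many epithelial and stromal cells, differed most between the sections. In the tumor it was 268 CPM in section 1 and 2883 CPM in section 2, on the tumor side of the edge 301 and 780.2, on the neural side 169.6 and 349.6, and in neural tissue 474 and 442. The neural levels were close to each other and lay between those of the tumors. Between the tumors the level was 10.7 times higher in section 2, and between the neural tissues it was 0.933 times that of section 1.

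The log2 fold change of *Gja1* between tumor and neural tissue was -0.48 in section 1 and 3.06 in section 2, a difference of 3.54 that 1.84% of all genes tested equalled or passed. Over both sections it was 1.45 (SE 0.81, edgeR quasi-likelihood BH-adjusted p = 0.21), which is within what the sections differed by. With 1 animal for each pattern the contrast between the sections has no replicate, and it was not tested. The tumors also differed in their epithelial and fibroblast marker sums, whose part in this was not tested, and the labels name their organoids HP-F1 and HP-B6, so that a difference between organoids and one between animals cannot be told apart. Against the edge the tumor differed by 1.98 (SE 0.65, edgeR quasi-likelihood BH-adjusted p = 0.0996), higher in both sections by 0.50 and 2.78, and DESeq2 called this difference (1.92, adjusted p = 0.017). At the edge against neural tissue it was -0.99 and 0.28 in the sections (-0.53 over both, edgeR quasi-likelihood BH-adjusted p = 0.64).

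Across the border the profiles of *Gja1* had different shapes. In section 2 it fell from 3243 CPM at 9 to 12 steps inside to 1707 at 3 to 4 steps, 1006 at the second, 458 at the first, and then 345 CPM at the first step outside. Summed epithelial markers fell over the same steps, from 11550 to 2222 CPM at the first step inside and 1521 at the first step outside. These markers are all among the tumor genes that drew the zones, so their fall is not independent of where the border was set. In section 1 the lowest values of *Gja1* were at the border itself, 176 and 164 CPM at the first and second steps outside, between 344 CPM at the second step inside and 524 CPM at steps 5 to 8 outside. Section 1 thus had a dip just outside the border with higher levels on either flank. In section 2 the low stretch was wider: levels stayed between 340.4 and 355 CPM from the first to the eighth step outside and were 502.5 at steps 17 to 30.

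**Figure D3:**
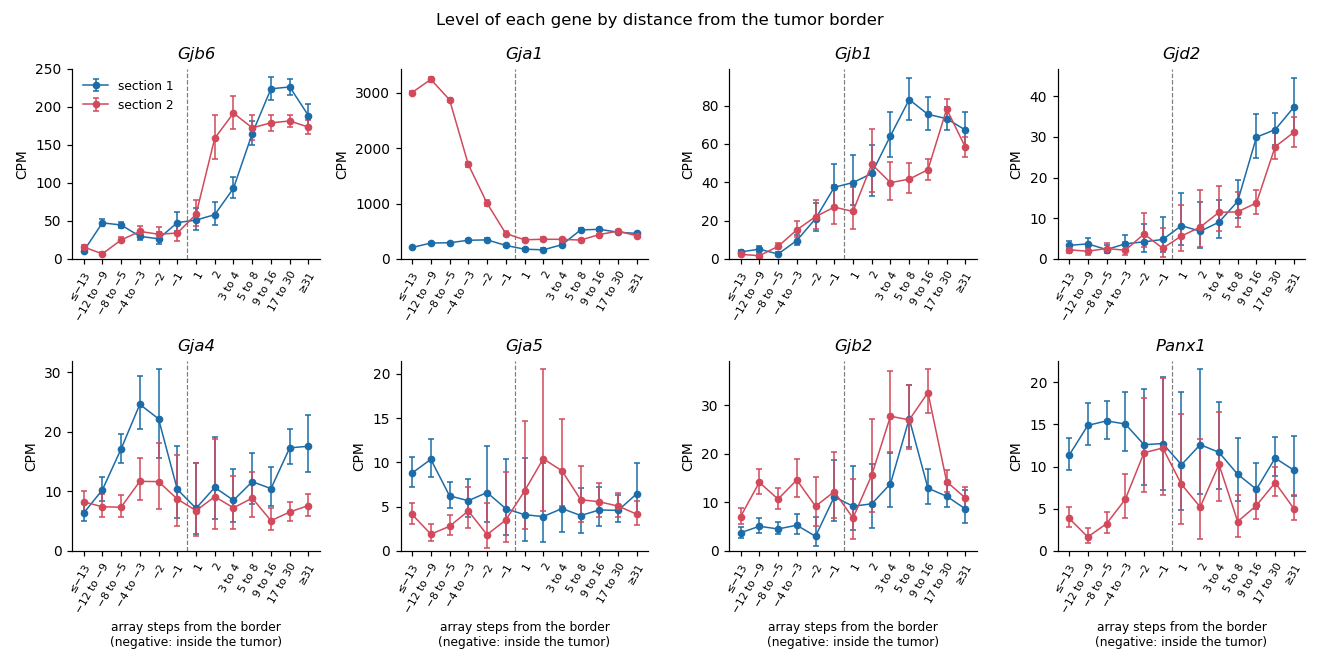
CPM of each gene by array steps from the tumor border (dashed line; negative steps lie inside the tumor) in section 1 (blue) and section 2 (red), with exact Poisson 95% intervals for counting error alone. *Gja1* drops across the border of section 2 from 3243 to 345 CPM, and *Gjb6* climbs outward in both sections.

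*Gja1* went with epithelial markers inside the tumor of section 2. Its level was 3757 CPM (3696 to 3819) in the 10% of tumor spots highest in those markers and 2766 in the others, but 854 CPM in macrophage-high spots against 3029 in the others and 1580.1 CPM in astrocyte-high spots against 3006. In section 1, astrocyte-high tumor spots had more *Gja1* than the others, 445 CPM (424 to 467) against 249.8, while spots ranked by epithelial markers had 248 against 270.4. That ranking rests on a marker sum near that of neural tissue, so nothing is read from it. The separate piece of 118 epithelial spots in section 2, with *Epcam* at 1533 CPM, had 2140 CPM of *Gja1*. The choroid plexus piece of 46 spots, with *Ttr* at 218237 CPM, had 55.9 CPM (37.7 to 79.8) of *Gja1*.

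The zone levels of *Gja1* and *Gjb6* also show in their correlation over each whole section. Across tiles of 6 array rows by 12 columns, the Pearson correlation of their log2 levels was 0.60 over 100 tiles of section 1 and -0.72 over 122 tiles of section 2. The tiles take in tumor and neural tissue together, so these values in part restate the zone levels given above. Whether the genes were related within a zone was not tested. Tiles share a library and neighbors share tissue, so this is a description. The sequences that precede these 2 genes are shown because both genes are known from astrocytes yet differed inside the tumor of section 2. They are the 250 bases before the annotated start (RefSeq, GRCm38.p6), chr10:56377050-56377299 on the plus strand and chr14:57133612-57133861 on the minus strand, written 5′ to 3′ with the match to TGANTCA, the AP-1 motif, in capitals.
Gja1: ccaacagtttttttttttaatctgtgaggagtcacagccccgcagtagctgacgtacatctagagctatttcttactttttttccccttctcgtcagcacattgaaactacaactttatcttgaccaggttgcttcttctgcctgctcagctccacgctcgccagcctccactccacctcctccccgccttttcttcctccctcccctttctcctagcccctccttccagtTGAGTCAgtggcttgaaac
Gjb6: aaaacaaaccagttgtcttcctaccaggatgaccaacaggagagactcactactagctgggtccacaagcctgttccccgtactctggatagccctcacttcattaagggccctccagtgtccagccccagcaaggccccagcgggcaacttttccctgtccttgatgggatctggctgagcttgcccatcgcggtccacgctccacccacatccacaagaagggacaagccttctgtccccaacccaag
The *Gja1* window has 1 AP-1 match, which begins 19 bases before the start, and the *Gjb6* window has 0. Of 32851 windows of this length, 6.75% hold TGANTCA on either strand, and it is in the windows of none of the other 7 genes. GGGCGG (the SP1 motif), TATAAA and ACAAAG (the SOX motif), found in 32.7%, 12.4% and 16.5% of windows, are in neither sequence. A match says only that the letters are there.

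*Gjb1* (CX32; chrX:101376376-101385629), the connexin that oligodendrocytes share with myelinating Schwann cells, fell in all 3 comparisons. Levels were 4.44 and 4.80 CPM in the tumors of sections 1 and 2, 28.0 and 24.1 on the tumor side of the edge, 42.3 and 36.2 on the neural side and 73.2 and 60.5 in neural tissue. The order of the 4 zones was the same in both sections, and the values of the sections in one zone did not overlap those in the next. The counting intervals of the 2 sides of the edge did overlap in each section, from 22.3 to 34.8 and 33.8 to 52.3 CPM in section 1 and from 18.7 to 30.6 and 27.6 to 46.6 in section 2. Its log2 fold change was -3.50 for tumor against neural tissue (SE 0.23, adjusted p = 0.00028), -1.0 for edge against neural tissue (SE 0.18, adjusted p = 0.012) and -2.50 for tumor against edge (SE 0.21, adjusted p = 0.0037), all by edgeR's quasi-likelihood test with BH adjustment.

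Oligodendrocyte markers (8 genes with *Mbp* and *Mag*) fell alongside, 8 of 8 in tumor against neural tissue, from 15250.5 and 11030 CPM to 379 and 625. In the 10% of neural spots highest in these markers *Gjb1* was 126 CPM (104 to 152) in section 1 and 199 CPM (176 to 223) in section 2, against 70.7 and 53.9 in the other neural spots. Marker-high spots can differ in depth, and here their median was 3475 and 5030 UMIs against 8026 and 10422 in the others. Tile by tile its pattern was most like those of *Mag* and *Hapln2*, each with a mean Pearson correlation of 0.87 over 100 and 122 tiles. *Mag*, like most of the oligodendrocyte markers, is in the neural list that drew the zones, so the fall of *Gjb1* into the tumor is not independent of how the zones were set.

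*Gjd2* (CX36; chr2:114009601-114014378), the connexin of electrical synapses between neurons, was at 3.16 and 2.22 CPM in the tumors, 4.45 and 4.68 on the tumor side of the edge, 7.46 and 6.64 on the neural side and 27.7 and 23.6 in neural tissue. The sections lay close together in every zone, and both edges were far below neural tissue. The log2 fold change was -2.92 for tumor against neural tissue (SE 0.29, adjusted p = 0.00083) and -2.11 for edge against neural tissue (SE 0.25, adjusted p = 0.0038), by edgeR's quasi-likelihood test with BH adjustment. Between tumor and edge it was -0.81 (adjusted p = 0.10 by the same test). In contrast to *Gjb1*, which at the edge stood at a log2 fold change of -1.0, *Gjd2* had most of its fall at the edge already. The difference between the genes was not tested.

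The low zone of *Gjd2* was broad. It was at 8.17 and 5.63 CPM at the first step outside the border of sections 1 and 2, at 14.2 and 11.6 at steps 5 to 8, and reached 29.9 at steps 9 to 16 in section 1 and 27.6 at steps 17 to 30 in section 2. Whether the mix of neuron types changed with distance was not tested. Neural spots high in markers of inhibitory neurons (*Gad1*, *Gad2*, *Slc6a5*, *Slc32a1*) had 46.1 CPM (36.0 to 58.1) and 34.5 (27.7 to 42.5) of *Gjd2*. This list does not set interneurons apart from other inhibitory neurons. The other neural spots had 26.2 and 22.6 CPM. Spots high in granule neuron markers had less, 21.1 and 17.4 CPM against 28.6 and 24.7. All 4 of the inhibitory neuron markers and all 4 Purkinje cell markers fell in tumor against neural tissue and at the edge. Several of them are in the neural list that drew the zones. The tile patterns most like that of *Gjd2* were those of *Fgf9*, *Sgpp2* and *Slc12a5*, with mean correlations of 0.80, 0.80 and 0.79.

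**Figure D4:**
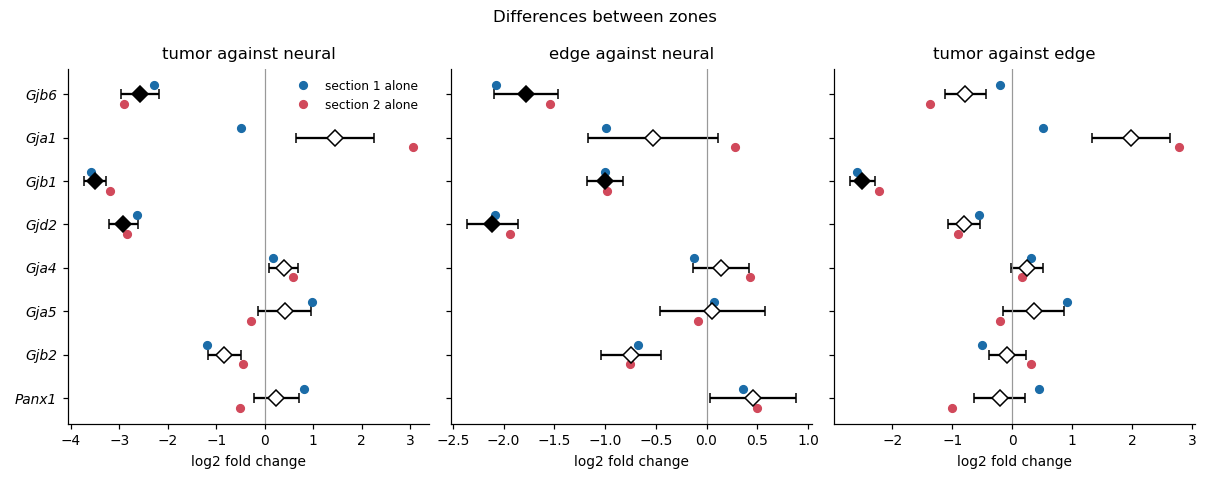
Log2 fold changes of the 8 genes in the 3 comparisons. Diamonds with bars are the fitted value and its SE over both sections (filled where the adjusted p was below 0.05), and circles are the values of section 1 (blue) and section 2 (red) alone. *Gjb6*, *Gjb1* and *Gjd2* lie left of 0 in both sections against neural tissue, and the circles of *Gja1* lie on either side of 0.

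The connexins of vessels did not pass the test in any comparison of CPM. *Gja4* (CX37; chr4:127311420-127314039) was at 12.9 and 8.17 CPM in the tumors, 17.1 and 10.4 on the tumor side of the edge, 8.95 and 7.85 on the neural side and 14.3 and 6.79 in neural tissue. Its log2 fold change between tumor and neural tissue was 0.39 (SE 0.30, edgeR quasi-likelihood BH-adjusted p = 0.33). In neural tissue the sections themselves were 2.11 times apart. *Gja5* (CX40; chr3:97032402-97053634) was at 7.98 and 3.22 CPM in the tumors and 4.83 and 5.16 in neural tissue, with 433 and 300 UMIs in each whole section. Its difference of 0.41 (SE 0.54, edgeR quasi-likelihood BH-adjusted p = 0.57) was 0.98 in section 1 and -0.29 in section 2. At this depth a zone of the edge held so few *Gja5* UMIs that its interval ran from 4.62 to 14.2 CPM on the neural side of section 2.

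*Gja4* nonetheless had a pattern inside the tumors. In endothelium-high tumor spots (8 markers with *Cldn5* and *Pecam1*) it was 41.6 CPM (35.3 to 48.8) in section 1 and 16.5 (12.3 to 21.7) in section 2, against 9.97 and 7.31 in the other tumor spots. In spots high in smooth muscle and pericyte markers it was 32.1 and 15.8 CPM in tumor and 31.6 and 11.5 in neural tissue, against 10.8, 7.47, 13.4 and 6.46 in the others. In section 1 it went from 6.34 CPM at 13 or more steps inside the border to 24.6 at 3 to 4 steps inside and was 10.3 at the first step inside. *Gja5* showed no such excess: in endothelium-high tumor spots it was 5.48 and 2.26 CPM against 8.24 and 3.32. These values rest on few counts, as the whole tumor interiors held 311 and 106 *Gja5* UMIs. Of the endothelial markers 6 of 8 rose in tumor against neural tissue (median log2 fold change 0.89), whereas of 6 arterial markers none rose and 2 fell (median -0.84). Of all genes 18.8% rose and 17.0% fell. From neural tissue to tumor the arterial sum fell from 113 to 53.9 CPM in section 1 and rose from 105 to 122 in section 2. The endothelial sum went from 306 to 304 CPM in section 1 and from 294 to 434 in section 2.

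*Gjb2* (CX26; chr14:57098602-57104702), which lies next to *Gjb6* and can form channels with CX30, was at 4.49 and 10.7 CPM in the tumors, 6.50 and 10.4 on the tumor side of the edge, 9.45 and 10.9 on the neural side and 13.6 and 18.8 in neural tissue. The tumor level was below the neural level in both sections, and the log2 fold change of -0.83 was not called (SE 0.33, edgeR quasi-likelihood BH-adjusted p = 0.10). With library size as the only scaling it was called (-1.18, adjusted p = 0.034 by the same test). *Gjb2* peaked at a distance from the border, at 27.2 CPM (21.4 to 34.1) at steps 5 to 8 in section 1 and at 32.6 CPM (28.3 to 37.4) at steps 9 to 16 in section 2. At 31 or more steps it was 8.64 and 10.9 CPM. In the tile with the most, in neural tissue of section 2, 39 UMIs over 35 spots gave 113 CPM. Neural spots high in summed meningeal markers (6 genes with *Slc47a1* and *Ptgds*) had 13.3 and 17.2 CPM of *Gjb2*, against 13.6 and 18.9 in the others. Such a sum can rest mostly on its most abundant gene, and the genes were not ranked singly. Whether *Gjb2* lay in meninges was thus not tested.

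*Panx1* (chr9:15005785-15045478) was not called in any comparison of CPM. It stood at 13.9 and 3.37 CPM in the tumors, 12.7 and 11.9 on the tumor side of the edge, 11.4 and 6.64 on the neural side and 9.81 and 6.33 in neural tissue. In CPM the tumor was the highest zone in section 1 and the lowest in section 2. In UMIs per spot the tumor of section 2 was not the lowest. It had 0.137, against 0.266 and 0.0909 on the tumor and neural sides of the edge and 0.0699 in neural tissue. The log2 fold change between tumor and neural tissue was 0.80 and -0.50 in the sections, and 0.24 over both (SE 0.46, edgeR quasi-likelihood BH-adjusted p = 0.69). In section 2 it was 1.65 CPM (0.901 to 2.76) at 9 to 12 steps inside and 12.2 CPM (6.67 to 20.5) at the first step inside. Macrophage-high spots of that tumor had 11.7 CPM (7.66 to 17.2) of *Panx1* against 2.77 in the others, and in section 1 the figures were 14.5 and 13.8 CPM. Macrophage markers (7 genes with *Cd68* and *C1qa*) themselves stood at 5165 CPM in the tumor of section 1 and 1445 in that of section 2.

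Levels in CPM compare shares of a zone's UMIs, and tumor spots held several times more UMIs than neural spots. When UMIs per spot were compared instead, the median over all genes moved to a log2 fold change of 1.81 for tumor against neural tissue, 0.81 for edge against neural tissue and 1.10 for tumor against edge, so the values below are to be read against those shifts. For tumor against neural tissue *Gja1*, *Gja4*, *Gja5*, *Panx1* and *Gjb2* were then called higher per spot, at 3.37, 2.32, 2.33, 2.18 and 1.06, of which the last lies below the median of all genes. Of the 19056 genes tested, 14583 were called higher on this scale and 918 lower, so a call of higher sets none of these genes apart. *Gjb1* was still called lower (-1.60, edgeR quasi-likelihood BH-adjusted p = 0.0011), and *Gjb6* (-0.62, adjusted p = 0.16) and *Gjd2* (-1.0, adjusted p = 0.061) were not called by that test. At the edge *Gjd2* stayed lower per spot (-1.22) while *Gjb6* (-0.89, adjusted p = 0.053) and *Gjb1* (-0.10, adjusted p = 0.82) lost their calls. *Gja4* (1.07) and *Panx1* (1.33) were called higher there, where 6272 of all genes were called higher and 474 lower. *Gjb1* is therefore the gene whose fall into the tumor was called on both scales, and the direction of *Gjb2* depends on the scale.

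The rest of the family was described from a list of 15 other connexin and pannexin genes, of which 14 were tested. In tumor against neural tissue 2 rose, 4 fell and 8 were not called (median log2 fold change -0.52), where 18.8% of all genes rose and 17.0% fell. *Gjc3* (CX29), another connexin of oligodendrocytes, fell with *Gjb1*, by 3.60 on the log2 scale, from 85.8 and 77.9 CPM in neural tissue to 5.01 and 5.71 in tumor. *Panx2*, the pannexin most abundant in neurons and glia, fell by 4.85, from 232 and 187 CPM to 5.47 and 5.83. The low-level *Panx3* fell by 1.10. Those values passed edgeR's quasi-likelihood test with adjusted p between 0.00027 and 0.037.

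At the edge against neural tissue 1 gene of that list rose and 3 fell, among them *Gjc3* by 1.16 and *Panx2* by 2.52. Of all genes 9.31% rose there and 12% fell. In tumor against edge 3 fell and none rose, where 6.72% of all genes fell and 4.91% rose. There *Gjc3* fell by 2.45 and *Panx2* by 2.33. Of 12 partners and scaffolds of connexins, 5 rose in tumor against neural tissue and 1 fell, where 18.8% of all genes rose and 17.0% fell. The median log2 fold change of the 12 was 0.95, against -0.09 over all genes. The caveolin *Cav1* (2.34), the ubiquitin ligase *Nedd4* (1.37), which acts on CX43, the kinases *Csnk1d* (1.15) and *Src* (1.11), which phosphorylate it, and *Ctnnb1* (1.0) rose, and *Cnst* (-0.92), the consortin that takes connexins to the membrane, fell. The scaffold *Tjp1* was among the 6 not called. Of these 12, none was called at the edge against neural tissue, where 21.3% of all genes were called. In tumor against edge 2 of them rose (*Nedd4*, 1.17, and *Src*, 0.96), as did 4.91% of all genes.

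Of 15 genes of ATP release and purine signaling, the pathway that pannexin channels feed, 6 rose in tumor against neural tissue and 1 fell, beside the same 18.8% and 17.0% of all genes (median log2 fold change 1.31 against -0.09). *Nt5e*, the CD73 ectoenzyme that makes adenosine, rose by 3.89, from 17.1 and 23.1 CPM to 101 and 401. The ATP-release channel gene *Calhm2* (1.78) and the ATP receptors *P2rx7* (1.32) and *P2rx4* (1.31) also rose, and *Entpd2*, an ectonucleotidase of glia, fell by 1.74. At the edge against neural tissue 5 rose, among them *Nt5e*, *P2rx4* and *P2rx7* by 2.54, 1.34 and 0.93, and *Entpd2* fell by 1.06, where 9.31% of all genes rose and 12% fell. Macrophage markers were called higher at that edge for 5 of 7 genes, and their part in these values was not tested. In tumor against edge 1 gene of the list was called, higher in tumor, where 4.91% of all genes rose and 6.72% fell.

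By tile pattern, the genes nearest to *Gjb6* were *Ttyh1*, *Scg3* and *Tmod2*, with mean correlations of 0.93, 0.92 and 0.92 over the 100 and 122 tiles. These tiles too span tumor and neural tissue, so differences between zones enter the correlations. For *Gja1* they were *Ptprf* (0.77), *Tanc2* (0.73) and *Atp11a* (0.72), higher in section 2 (0.87 to 0.91) than in section 1 (0.56 to 0.65). For *Gjb2*, *Gja4*, *Gja5* and *Panx1* the leading genes were *Rb1*, *Unc13b*, *Pcdhgc3* and *Cmip*, whose values between 0.40 and 0.46 are too weak in such sparse counts to be a finding.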

How the data were processed

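The authors deposited UMI counts for each gene in each spot, made with Space Ranger 2.1.1 on build mm10 and not normalized. Spots under 500 UMIs or 10 genes were left out. Each spot was scored as log2 of summed CPM of 23 tumor genes over 24 neural genes (each plus 10), averaged with its neighbors, and divided by Otsu's method in each section; the largest piece above was the tumor. The arrays share 3096 spot barcodes because array layouts repeat them. UMIs were summed into 8 libraries (2 sections, 4 zones; 1656187 to 38955588 UMIs) and fitted with edgeR 4.0.16 in R 4.3.3 (TMM, filterByExpr, robust glmQLFit, section as a block, 3 residual degrees of freedom; the edge is the mean of its sides). Zones of 1 section come from 1 animal, which gives the pairing (common dispersion 0.0816 under the block, 0.141 when it was dropped). With 2 sections and this block, the tests measure how far differences between zones disagree between these animals alone. That spread is pooled over the 4 zones, and the 2 sides of an edge are adjoining tissue of the same animal. Fold changes within a section used TMM-scaled CPM plus 0.5. Exact Poisson intervals (95%) cover counting error only.

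Alternatives were RLE factors, library size only, UMIs per spot, DESeq2 1.42.0, no low-count filter, no block, other region rules, other edge widths, a minimum of 1000 UMIs and each section alone. Genes named are the 8 members, called genes of 3 lists (a few of which are not reported here), and the 3 genes nearest in tile pattern among 11535 with at least 500 UMIs in each section. The members and lists were chosen with earlier results of these data known. Tests were run on simulated data first. Probe counts are not scaled by length, so levels were not compared between genes. Promoters are RefSeq's (GRCm38.p6). No other sample's columns were present. Python 3.11.15 with numpy, scipy and pandas was used.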

Additional observations from a re-analysis of the deposited data

How the results depend on the processing

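Directions and calls of *Gjb1*, *Gjd2* and *Gjb6* against neural tissue held under the 12 alternatives other than UMIs per spot, except that *Gjb6* at the edge lost its call with k-means regions. Without the replicate block 5270, 3008 and 1230 genes were called for tumor against neural, edge against neural and tumor against edge, and no member's call changed. With UMIs per spot 15501, 6746 and 10136 of the 19056 genes tested and 6, 3 and 4 members were called. Signs turned for *Gjb2* (1.06, 0.17 and 0.89 in the 3 comparisons), *Gja1* at the edge against neural tissue (0.48) and, for tumor against edge, *Gjb6* (0.28), *Gjd2* (0.22) and *Panx1* (0.85). For tumor against edge DESeq2 called 3779 genes and 2 members, k-means regions 630 genes and the neural list alone 41 genes. With library size only, 2327 genes were called higher and 5090 lower for tumor against neural tissue, and 235 and 1731 for tumor against edge (median of all genes -0.44 and -0.19).

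Other reversals were of values not called with CPM under the reported settings. With library size only they were *Panx1* in tumor against neural tissue (-0.10), *Gja5* at the edge against neural tissue (-0.0088) and *Gja4* in tumor against edge (-0.037). With the neural list alone they were *Panx1* in tumor against neural tissue (-0.084), *Gja1* (0.53) and *Gja5* (-0.062) at the edge against neural tissue, and *Gja4* (-0.50) and *Gjb2* (0.038) in tumor against edge. With an edge of 1 step they were *Gja4* (-0.18) and *Gja5* (-0.0033) against neural tissue, with k-means regions *Gja4* (-0.047) and without the replicate block *Gjb2* (0.022), both in tumor against edge. With 1 section left out, values ran for tumor against neural tissue from -0.48 to 3.06 (*Gja1*), -0.29 to 0.98 (*Gja5*) and -0.50 to 0.80 (*Panx1*), for edge against neural tissue from -0.99 to 0.28 (*Gja1*), -0.13 to 0.43 (*Gja4*) and -0.085 to 0.069 (*Gja5*), and for tumor against edge from -0.20 to 0.91 (*Gja5*), -0.51 to 0.31 (*Gjb2*) and -1.0 to 0.45 (*Panx1*). A section alone leaves no test. The causes were not tested.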
